A study of Homo sapiens and Homo sapiens
Mus musculus and Mus musculus with 200 samples.

Results

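TWIST1 binding was mapped by chromatin immunoprecipitation and sequencing (ChIP-seq) in HEK293 cells that were given TWIST1 together with the homeodomain factor MSX1, and was set against cells given TWIST1 alone. HEK293 is a human embryonic kidney line that takes up plasmid DNA readily. Cells received pcDNA3.1_V5-TWIST1, either alone or with pcDNA3.1_MSX1-Flag added. Both groups, unedited (WT) in genotype, were harvested 24 h after transfection and precipitated with an antibody to TWIST1. Each group is 1 library, so these are 2 of the 200 samples of the series, and no difference between them has a replicate check. Both proteins came from plasmids in a kidney line, and the lists hold no expression values from which the cells or protein levels could be checked. The list with MSX1 held 2498 peaks and the list with TWIST1 alone 15395. To compare lists of such unequal length, the 2000 peaks with the highest -log10 p were taken from each, and 2 peaks were counted as the same site when they shared at least 1 bp. By this rule 578 sites of the list with MSX1 were kept (577 when counted in the other list), 1422 were gained with MSX1 and 1423 were lost.

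Other groups were used to describe these sites. In HEK293 they were TWIST1 libraries with ALX4, PRRX1a, PRRX1b or PHOX2A as the partner (1 each), 1 library of pCAG-TWIST1, and V5 libraries of V5-TWIST1(WT) with and without ALX4 (3 each). Human cranial neural crest cells (hCNCC), the embryonic cells that form much of the face, were derived from H9 human embryonic stem cells. Unedited hCNCC gave TWIST1 peaks, MSX1FNV hCNCC gave V5 peaks of the tagged endogenous MSX1, and TWIST1FV and MSX1FNV hCNCC gave counts of H3K27ac, a histone mark of active enhancers and promoters, at 0, 3 and 24 h of dTAGV-1 (500 nM), which degrades the tagged factor. All TWIST1FV libraries carry the same clone label, and so do all MSX1FNV libraries.

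TWIST1 is a basic helix-loop-helix (bHLH) factor that binds DNA as a dimer at E-boxes, short sites of the form CANNTG, and its dimers form with E proteins such as TCF3, TCF4 and TCF12. MSX1 is a homeodomain factor that binds sites with a TAAT core and is best known as a repressor downstream of BMP signalling in the developing jaws and teeth. Loss of function of TWIST1 in people causes Saethre-Chotzen syndrome, with early fusion of the skull sutures, and loss of MSX1 causes missing teeth and clefts.

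One feature that differed between gained and lost sites was a pair of sites with fixed spacing, an E-box followed after 4 bases by a homeodomain site, called the composite motif here. Of the 8 gained sites with this motif and the highest -log10 p, 7 are shown, named by the nearest protein-coding gene, in hg38, read 5′ to 3′ on the strand that puts the E-box first. Capitals mark the E-box and the homeodomain site.
LGI1 (chr10:93816338-93816383, plus strand): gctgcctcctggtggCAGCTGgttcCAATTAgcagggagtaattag
CLK1 (chr2:200867092-200867137, minus strand): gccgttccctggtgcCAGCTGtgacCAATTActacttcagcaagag
GDF5 (chr20:35443207-35443252, minus strand): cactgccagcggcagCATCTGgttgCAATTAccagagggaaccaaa
EGFLAM (chr5:38317016-38317061, minus strand): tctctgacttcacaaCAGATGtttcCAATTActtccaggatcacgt
N4BP1 (chr16:48531841-48531886, plus strand): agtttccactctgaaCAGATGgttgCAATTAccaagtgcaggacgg
IGFBP7 (chr4:57101495-57101540, plus strand): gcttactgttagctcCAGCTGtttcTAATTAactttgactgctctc
CEBPG (chr19:33339944-33339989, minus strand): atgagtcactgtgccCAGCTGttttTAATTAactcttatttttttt

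Lost sites more often held another pair, 2 E-boxes 5 bases apart, called the double E-box. The 4 lost sites and the 4 kept sites outside exons with this motif and the highest -log10 p are shown in the same way, with both E-boxes in capitals. The first 4 sites were lost.
SYNE1 (chr6:152095406-152095452, plus strand): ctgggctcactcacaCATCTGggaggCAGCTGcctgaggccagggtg
NAV1 (chr1:201562382-201562428, plus strand): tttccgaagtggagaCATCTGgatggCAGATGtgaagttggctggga
MCTP2 (chr15:94070548-94070594, plus strand): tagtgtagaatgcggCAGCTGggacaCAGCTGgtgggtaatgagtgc
WNT10A (chr2:218898337-218898383, plus strand): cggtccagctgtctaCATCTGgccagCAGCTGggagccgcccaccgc
The next 4 sites were kept.
TMPO (chr12:98503082-98503128, plus strand): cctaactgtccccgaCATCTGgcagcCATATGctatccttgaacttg
CENPP (chr9:92607929-92607975, plus strand): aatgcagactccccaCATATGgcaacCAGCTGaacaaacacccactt
SIX5 (chr19:45769470-45769516, plus strand): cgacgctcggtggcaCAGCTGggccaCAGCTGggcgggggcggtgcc
MRPL34 (chr19:17305455-17305501, plus strand): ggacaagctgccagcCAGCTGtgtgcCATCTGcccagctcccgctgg

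The list with MSX1 was weaker than the list with TWIST1 alone, and this bears on every share below. Its 2000 strongest peaks made up 80.1% of the list and reached down to a -log10 p of 5.09, whereas those of TWIST1 alone made up 13.0% and reached down to 15.8. The median fold enrichment of the 2000 was 4.66 with MSX1 and 7.52 alone. Fold enrichment and -log10 p are the authors' own values for each peak within its list. How many reads a list rests on is unknown. A weaker library and a changed set of bound sites cannot be told apart from these lists alone. Between the 500 strongest sites with MSX1 and those ranked 1501 to 2000, the share found among the 2000 strongest of TWIST1 alone went from 61.2% to 7.20%, the share with an E-box from 84.0% to 47.2%, the share bound by TWIST1 in hCNCC from 86.0% to 27.6%, and the share with the composite motif from 6.20% to 1.4%.

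Of the 2000 strongest sites with MSX1, 28.9% were among the 2000 strongest with TWIST1 alone (exact Clopper-Pearson 95% interval 26.9 to 30.9, which covers counting error only, as do all intervals given here). The same share was 29.2% with ALX4, 26.95% with PRRX1a, 29.5% with PRRX1b and 46.0% with PHOX2A, all against the same list of TWIST1 alone. Pairs of HEK293 lists without any partner (TWIST1 alone, pCAG-TWIST1 and the 3 replicates of V5-TWIST1(WT), 10 pairs) shared 44.7% to 57.2%, with a median of 49.9%. The MSX1 list was thus below all 10 pairs at this length. For the 500 strongest peaks it shared 38.4%, more than ALX4 (31.8%), PRRX1a (28.6%) or PRRX1b (27.2%), and the pairs 39.6% to 59.0%, so there the gap to the lowest pair was within counting error. In the complete lists, 55.0% of the 2000 strongest sites with MSX1 were found somewhere in the list of TWIST1 alone, and 30.5% of the 2000 strongest of TWIST1 alone were found somewhere in the shorter list with MSX1. Of the 1422 gained sites, 522 were weaker peaks of TWIST1 alone and 900 were absent from it. Of the 1423 lost sites, 32 were weaker peaks with MSX1 and 1391 were absent.

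**Figure D1:**
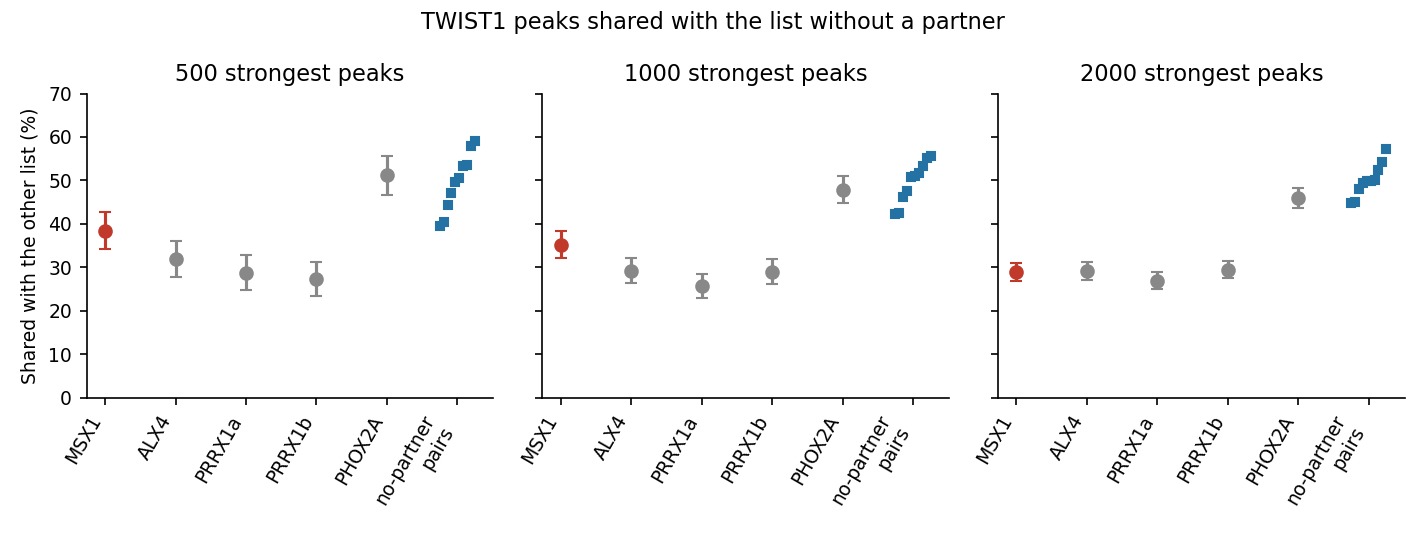
Share of the strongest 500, 1000 and 2000 TWIST1 peaks of each HEK293 list that overlap the equally long list without a partner (y axis, percent). Circles are lists with a partner against TWIST1 alone, with exact 95% intervals, and squares are the 10 pairs of lists without a partner; the MSX1 list shares 38.4%, 35.2% and 28.9%, while the pairs never share under 39.6%.

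The composite motif was found within 100 bp of the summit in 54 of 1422 gained sites (3.80%, interval 2.87 to 4.93), in 13 of 578 kept sites (2.25%, 1.20 to 3.82) and in 6 of 1423 lost sites (0.422%, 0.155 to 0.915). The motif was searched on both strands as an E-box (CATCTG or CATATG or CAGCTG or CAGATG), then 4 bases, then a homeodomain site (TAATTA or TAATTG, the latter also read as CAATTA). Windows of the same length placed 1000 bp to either side held it in 0.0352% for gained sites and in none of the 2846 windows for lost sites, which allows up to 0.130%. The intervals of gained and lost sites do not overlap. The contrast was larger among the strongest peaks. With 500 peaks a list, 8.12% of gained sites and 0 of the lost sites had the motif. The 6 lost sites and the 13 kept sites are small numbers, and a difference between gained and kept sites was not detectable, since their intervals overlap. The motif was not particular to MSX1. Among the 2000 strongest peaks of a list it was at 3.35% with MSX1, 3.70% with ALX4 and 3.75% with PHOX2A. With PRRX1a, PRRX1b and TWIST1 alone it was at 2.00%, 2.05% and 0.90%.

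**Figure D2:**
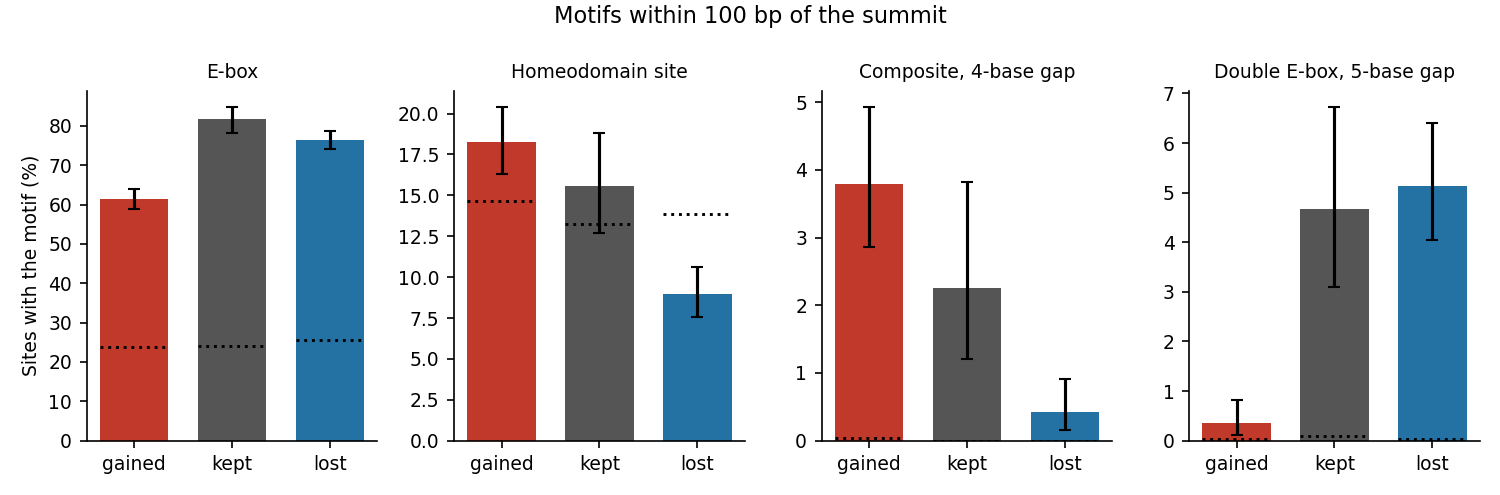
Share of gained, kept and lost sites (y axes, percent, each starting at 0) with an E-box, a homeodomain site, the composite motif and the double E-box within 100 bp of the summit. Bars carry exact 95% intervals and dotted lines give the share in flanking windows; the composite motif is at 3.80% of gained and 0.422% of lost sites, and the double E-box at 0.352% and 5.13%.

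No other spacing stood out. Gaps from 0 to 20 bases between the E-box and the homeodomain site were counted, and in gained sites every gap other than 4 was seen at 0 to 6 sites, against 54 for the gap of 4. In kept sites the gap of 4 was seen at 13 sites and the next, 19 bases, at 5. In lost sites the gap of 4 was seen at 6 sites.

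**Figure D3:**
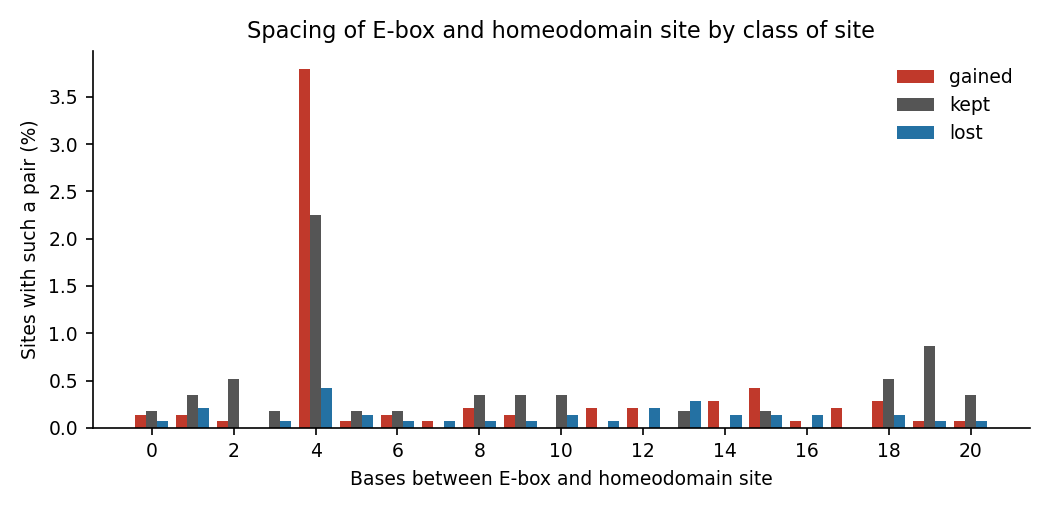
Share of gained, kept and lost sites (y axis, percent) with an E-box and a homeodomain site separated by each number of bases from 0 to 20 (x axis). The gap of 4 bases reaches 3.80% of gained, 2.25% of kept and 0.422% of lost sites, and no other gap reaches 1% in any class.

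The homeodomain site of the composite motif was mostly CAATTA. Of the 54 composite motifs in gained sites, 37 had CAATTA after the E-box, 13 had the palindrome TAATTA and 4 had TAATTG. The E-box was CAGCTG in 20, CATCTG in 18, CAGATG in 10 and CATATG in 6. The commonest spacer base was T at each of its first 3 positions, in 19, 26 and 28 of the 54 motifs, and G at the last, in 18.

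Of the 54 gained sites with the composite motif, 16 (29.6%) were weaker peaks in the complete list of TWIST1 alone, as were 522 of all 1422 gained sites. The complete lists with ALX4, PRRX1a, PRRX1b and PHOX2A held 31, 17, 30 and 28 of the 54. In the V5 lists of V5-TWIST1(WT), the 2000 strongest peaks held 1, 2 and 4 of the 54 in the 3 replicates without ALX4, and 17, 18 and 12 in the 3 replicates with ALX4. The groups did not overlap. Low values without a partner follow in part from the choice of the sites, which leaves out strong sites of TWIST1 alone. In hCNCC, 47 of the 54 (87.0%) were TWIST1 peaks in both replicates, against 47.7% of all gained sites. The motif was more frequent among stronger peaks, and these sets were not matched for peak strength. With 500 peaks a list, 85.4% of all gained sites were TWIST1 peaks of hCNCC. Of the 54, 3 lay within 1000 bp of a transcription start site.

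The double E-box showed the opposite distribution. It was found in 5 gained sites (0.352%, interval 0.114 to 0.819), 27 kept sites (4.67%, 3.1 to 6.72) and 73 lost sites (5.13%, 4.04 to 6.41), and in 0.0351% to 0.0865% of flanking windows. Kept and lost sites thus held it about equally often, and gained sites less often than either, with intervals that do not overlap. Of the 73 lost sites with the double E-box, 47, 53 and 48 were among the 2000 strongest peaks of the 3 V5-TWIST1(WT) replicates without ALX4, and 5, 5 and 9 with ALX4. Among the lists precipitated with the TWIST1 antibody, which share the comparison with TWIST1 alone, the 2000 strongest peaks with PHOX2A held 45 of the 73, those with ALX4 held 5, those with PRRX1a 3 and those with PRRX1b 7.

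Single E-boxes were common in every class. They were present in 61.4% of gained, 81.7% of kept and 76.5% of lost sites, against 23.9%, 24.0% and 25.5% of flanking windows. A homeodomain site (TAATTA or TAATTG), with or without an E-box nearby, was present in 18.3% of gained sites (interval 16.3 to 20.4) and 14.7% of their flanks. Lost sites had it at 8.995% (7.56 to 10.6) and their flanks at 13.9%. Gained sites were thus above their surroundings, with the 54 that hold the composite motif counted in, and lost sites below theirs. In gained sites TAATTA was at 6.33%, against 7.03% of flanks, and TAATTG at 13.1%, against 8.61%. Gained sites without the composite motif were not counted apart. The core TAAT was at 72.9% of gained sites and 74.4% of their flanks, and at 51.2% of lost sites and 70.7% of theirs. Other bHLH sites were more frequent in lost sites, with CACCTG at 32.3% against 23.5% of gained sites and CACGTG at 10.47% against 5.20%. The AP-1 site (TGACTCA or TGAGTCA), bound by FOS and JUN dimers, was at 14.0% of lost and 8.09% of gained sites, against 3.20% and 3.59% of flanks. Of all 6-base words in at least 5% of gained windows, the highest ratio of gained to lost sites belonged to ATTATA, at 7.38% and 2.67% (ratio 2.77). Next came ATATAA, and AATTAG was at 12.6% of gained and 5.13% of lost sites; the 7 that followed the first had ratios from 2.59 to 2.2. The words with the highest ratio of lost to gained sites, such as CGCGGC (10.6% of lost and 2.74% of gained sites), were rich in CG. Median GC content was 47.8% in gained, 49.8% in kept and 52.7% in lost windows, and its part in the word ratios was not tested.

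V5 libraries of V5-TWIST1(WT) with and without ALX4 gave a replicated view of the same sites with another antibody and another homeodomain partner. Of the 1422 sites gained with MSX1, the 2000 strongest V5 peaks without ALX4 held 6.89%, 6.68% and 6.19% in the 3 replicates. With ALX4 they held 16.6%, 15.6% and 14.7%. All 3 replicates with ALX4 were above all 3 without, with means of 15.6% ± 0.95 and 6.59% ± 0.361 (SD, n = 3 each). The difference was 9.05 percentage points, given without a test because gained sites were chosen as not strong without a partner. Since gained sites are not strong with TWIST1 alone by the rule, and lost and kept sites are, the choice of sites favours these directions for gained and lost sites, and the values are a description. The 900 gained sites that were absent from the complete list of TWIST1 alone gave 2.22%, 2.44% and 1.78% without ALX4 and 11.1%, 11.2% and 9.56% with it.

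For the lost sites the order was the opposite. Without ALX4 the V5 lists held 47.3%, 43.6% and 44.2% of the 1423 lost sites, and with ALX4 they held 15.7%, 15.5% and 17.9%. The difference of the means was -28.6 percentage points, given without a test because lost sites were chosen as strong without a partner. Kept sites were held at 72.1%, 63.5% and 64.5% without ALX4 and at 57.6%, 55.7% and 59.7% with it, a difference of -9.05 points, and these sites too are strong with TWIST1 alone by the rule. With all peaks of each V5 list in place of the 2000 strongest, the difference was -0.577 points for kept sites and -12.2 points for lost sites, and for both the groups then overlapped. In the complete lists 41.4% to 59.3% of gained sites had some V5 peak without ALX4 and 63.5% to 77.7% with ALX4.

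**Figure D4:**
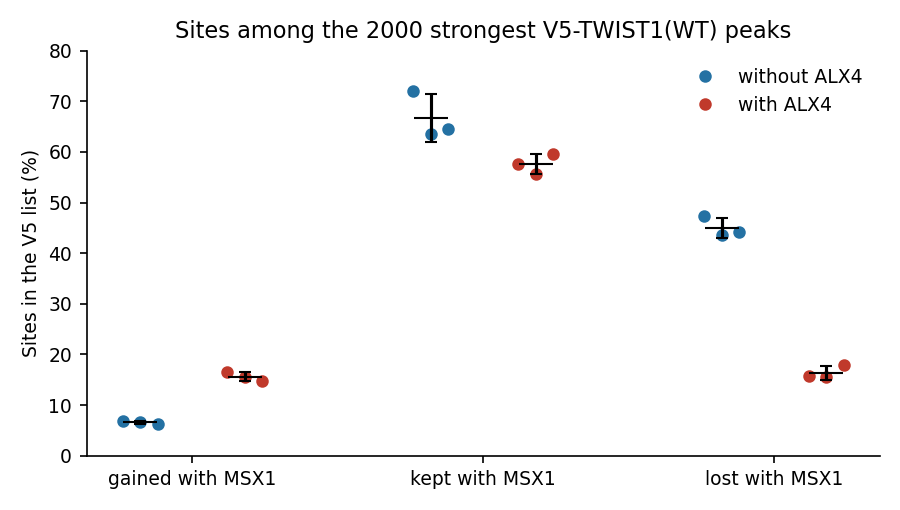
Share of the sites gained, kept and lost with MSX1 (x axis) that fall among the 2000 strongest V5 peaks of V5-TWIST1(WT) in HEK293 (y axis, percent), without and with ALX4. Points are the 3 replicates, dashes and bars their mean and SD; for gained sites the replicates with ALX4 (14.7% to 16.6%) lie above those without (6.19% to 6.89%), and for lost sites they lie below (15.5% to 17.9% against 43.6% to 47.3%).

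Among all gained sites the highest -log10 p was 153, at a site left out of the naming. Outside chromosome 8 and unplaced contigs, the strongest gained site lay in an intron of SYN3, which encodes a synapsin of synaptic vesicles, at chr22:32882919-32883580. It had a fold enrichment of 18.4 and a -log10 p of 68.4 with MSX1, and no peak with TWIST1 alone. Each other partner list held a peak there, with a fold enrichment of 8.88 with ALX4, 5.75 with PRRX1a, 7.82 with PRRX1b and 5.49 with PHOX2A. The V5 lists without ALX4 held it in 1 of 3 replicates, and those with ALX4 in all 3, at 10.8, 11.5 and 8.27. The next site, at chr10:93816142-93816637 and 15183 bp from the start of LGI1, which encodes a secreted neuronal protein, carried the composite motif. It had a fold enrichment of 12.8 with MSX1 and no peak with TWIST1 alone, but it was a V5 peak without ALX4 at 5.69, 7.50 and 17.3 and with ALX4 at 20.5, 30.0 and 54.2. Absence from the single list of TWIST1 alone therefore does not show absence of binding without a partner.

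A site 85149 bp from TNC, the gene of the matrix protein tenascin-C, at chr9:115203071-115203767, had a fold enrichment of 16.7 with MSX1 and of 4.99 in the list of TWIST1 alone. CLK1, which encodes a kinase of splicing factors, had a composite site 2463 bp from its start (chr2:200866896-200867827) at 13.4 with MSX1 and 5.69 alone. Its V5 values were 3.55, 5.03 and 5.31 without ALX4 and 26.2, 55.8 and 55.0 with it. RNF11, SPATA18, ASB6 and the gene listed as ENSG00000258881 completed the 8 strongest gained sites outside chromosome 8 and unplaced contigs, at fold enrichments of 9.39 to 13.2 with MSX1. All 8 were TWIST1 peaks of hCNCC in both replicates.

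Among the other composite sites, the one in an intron of GDF5, a BMP-family ligand of joint formation, had a fold enrichment of 9.51 with MSX1, 4.54 alone and 12.04 with PHOX2A. The site in an intron of IGFBP7, which encodes a secreted protein that binds insulin-like growth factors, had 10.1 with MSX1 and none alone, and 11.8 with ALX4. The site at N4BP1 was found with MSX1 (10.46) and ALX4 (4.72) and in V5 replicates 2 and 3 with ALX4 (6.14 and 6.57), but not with PRRX1a, PRRX1b or PHOX2A. The sites in introns of EGFLAM, which encodes a matrix protein, and SLC14A2, which encodes a urea transporter of the kidney, had 8.44 and 7.89 with MSX1 and 4.44 each alone. The site at CEBPG was the only one of the 8 that was no TWIST1 peak of hCNCC.

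The 8 strongest kept sites were peaks with TWIST1 alone, with each of the 5 partners and in all V5-TWIST1(WT) replicates with and without ALX4. They lay nearest to WDR62 (a spindle pole protein), SUB1, RYBP (a Polycomb component), NID2 (a basement membrane protein), PCOLCE (an enhancer of procollagen processing), ZNF608, CD180 and COLEC12. Their fold enrichments with MSX1 ran from 18.6 at COLEC12 to 29.8 at RYBP, and in the list of TWIST1 alone from 14.1 at COLEC12 to 36.9 at RYBP. At NID2, 143 bp from its start, the values were 28.6 with MSX1 and 29.9 alone. At ZNF608, CD180 and COLEC12 the value with MSX1 was the higher, and at the other 5 the lower, with no test.

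None of the 8 strongest lost sites had a peak in the list with MSX1, and all 8 were V5 peaks in all 3 replicates without ALX4. The site in the UTR of CBFA2T2, which encodes a corepressor, lay 75 bp from its start and had a fold enrichment of 27.9 with TWIST1 alone. The other lists held it at 14.5 with ALX4, 9.95 with PRRX1a, 17.6 with PRRX1b and 16.6 with PHOX2A. A site within the ESR1 gene and 52346 bp from the start of SYNE1 had 20.1 alone, 8.40 with ALX4 and 12.7 with PHOX2A. A site in the UTR of SOX9, the regulator of cartilage and neural crest development, lay 4402 bp from its start and had 19.1 alone, 3.42 with ALX4 and 6.40 with PHOX2A. The site in an intron of NAV1 had 15.6 alone and 9.496 with PHOX2A, and no peak with MSX1, ALX4 or either PRRX1 isoform. Its V5 values without ALX4 were 11.4, 33.9 and 25.5, and with ALX4 it was a peak in 1 replicate, at 4.24. TLE3, a Groucho-type corepressor, PANK2 and ZNF536 had lost sites at 13.1, 17.9 and 11.2 alone. At ZNF536 the V5 lists held 11.0, 11.4 and 14.3 without ALX4 and 13.8, 40.6 and 33.1 with it.

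The lost site with the highest -log10 p, 184, covered the coding exon of TWIST1 itself (chr7:19116711-19117153) at a fold enrichment of only 4.69. The transfected plasmid carries this coding sequence, so DNA from the plasmid and from the gene cannot be told apart there. In the list with MSX1 the TWIST1 gene held instead an intron peak at chr7:19106752-19107528, with a fold enrichment of 6.51 and a -log10 p of 14.2. No list examined held a peak over the MSX1 gene. None of the named sites overlapped a V5 peak of cells given the empty plasmid pUC19, and that list touched 5 gained, 3 kept and 11 lost sites.

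In hCNCC, where both factors are expressed from their own genes, 47.7% of gained sites (interval 45.1 to 50.3), 72.8% of kept sites (69.0 to 76.4) and 44.8% of lost sites (42.2 to 47.4) overlapped a TWIST1 peak found in both replicates of unedited cells. Gained and lost sites were not distinguishable at this list length. With 500 peaks a list the shares were 85.4%, 87.0% and 55.5%, and with a separate TWIST1 list of hCNCC they were 52.6%, 77.5% and 56.6%, so the size of the difference depended on the list length and the order of gained and lost sites on the hCNCC list.

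Few sites coincided with MSX1 itself in hCNCC. The V5 lists of MSX1FNV cells held 50 and 278 peaks, 294 when merged, and 93.5% of these were also TWIST1 peaks. They overlapped 10 gained sites (0.703%, interval 0.338 to 1.29), 8 kept sites (1.38%, 0.599 to 2.71) and 10 lost sites (0.703%, 0.337 to 1.29). Seen from the MSX1 side, 18 of the 294 V5 peaks (6.12%) were among the 2000 strongest sites with MSX1, and 18 (6.12%) among those of TWIST1 alone. The same count was 41 with ALX4, 25 with PRRX1a, 29 with PRRX1b and 34 with PHOX2A. Replicate 1 alone, with its 50 peaks, left 3 gained, 1 kept and 4 lost sites. V5 peaks of another tagged homeodomain factor, ALX1 in ALX1FV cells, overlapped 54 gained, 42 kept and 21 lost sites (3.80%, 7.27% and 1.48%), with separate intervals for gained (2.87 to 4.93) and lost sites (0.916 to 2.25).

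The MSX1 V5 sites with the highest -log10 p in the HEK293 list with MSX1 lay nearest to FOXP4, ZNF608, BCAS3, RXRA, ASB13, PIP4K2B, CFAP161 and OLA1, and 6 of the 8 were kept. The FOXP4 site (chr6:41489129-41490045) had a fold enrichment of 18.3 with MSX1 and 8.63 alone. RXRA encodes the retinoid X receptor alpha, and its site had 9.38 with MSX1 and 10.2 alone. The site in an intron of PIP4K2B, a phosphoinositide kinase (chr17:38789160-38789581), was gained and carried the composite motif. It had 6.88 with MSX1, 4.00 alone and 32.2 with ALX4. The gained site 53876 bp from OLA1 had 7.25 with MSX1 and no peak alone.

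Gained sites lay near a promoter less often than lost sites. A transcription start site lay within 1000 bp of 15.7% of gained (interval 13.8 to 17.7), 20.1% of kept (16.9 to 23.6) and 27.8% of lost sites (25.4 to 30.2). The lower quartile of the distance was 2688 bp for gained and 754 bp for lost sites, while the medians were alike, at 12165 and 11102 bp. Summits in introns made up 51.4% of gained and 44.8% of lost sites, and intergenic summits 42.5% and 43.4%.

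By nearest start site, 1257 of 20020 protein-coding genes (6.28%) had at least 1 gained site, 532 (2.66%) a kept site and 1264 (6.31%) a lost site, and 220 genes had both a gained and a lost site. These shares are the background for the gene lists. Every list had a higher share than all genes in each of the 3 classes, as a description with no test. Among 66 transcription factors of the face and neural crest, 16 had a gained, 11 a kept and 13 a lost site. Gained sites lay 883 bp from the start of PRRX1, a homeodomain factor of craniofacial mesenchyme, 853 bp from FOXP2 and 14 bp from MEIS2, with fold enrichments of 8.11, 5.09 and 3.84. Lost sites lay 142 bp from DLX2, a homeodomain factor of jaw patterning, and 22 bp from SOX5, at 6.88 and 11.8. TWIST1, SOX9, FOXP2, FOXP1, FOXD3, MEIS1 and NR2F2 had both gained and lost sites at different places. The lost site at TWIST1, counted in the 13, is the coding exon peak where plasmid DNA cannot be told apart.

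Among 39 genes of BMP and TGF-beta signalling, 7 had a gained, 5 a kept and 10 a lost site. SMAD3, which carries the TGF-beta signal to the nucleus, had 4 gained sites, at fold enrichments of 3.48 to 6.33, and a lost site at 7.60, and the BMP pseudoreceptor BAMBI had 2 gained sites. The receptors TGFBR2 and BMPR2 had lost sites 73 and 347 bp from their starts. Among 32 bHLH dimer partners and ID inhibitors the counts were 7, 7 and 10, with the coding exon peak of TWIST1 among the lost sites. The E protein genes TCF3 and TCF4, whose products dimerise with TWIST1, had lost sites 347 and 0 bp from a start, at fold enrichments of 6.70 and 8.36, and TCF4 also had a gained site at 13501 bp. ID3, which encodes an inhibitor of E proteins, had a gained site at 4093 bp, a kept site within 1000 bp and a lost site at 2930 bp.

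Among 41 regulators of the epithelial to mesenchymal transition, cadherins and matrix genes, 12 had a gained, 6 a kept and 6 a lost site. The gained ones included the matrix genes TNC, SPARC, COL1A1, COL4A2, COL5A2 and LAMC1, the integrin gene ITGA5 and the protease gene MMP14, and the lost ones VCAN, CDH13 and LAMB1. ZEB1, ZEB2 and LAMA4 had both gained and lost sites, at ZEB1 a lost site 29 bp and a gained site 75365 bp from its start. The numbers of genes with a gained, a kept and a lost site were 6, 3 and 7 among 56 WNT genes, 7, 2 and 6 among 40 genes of FGF, PDGF and hedgehog signalling, 3, 2 and 6 among 30 kidney genes, and 6, 3 and 4 among 47 neuronal adhesion and synaptic genes. AXIN2, a target and inhibitor of WNT signalling, had a gained site 329 bp from its start, and PDGFRA, a growth factor receptor of neural crest mesenchyme, had gained sites at 1956 and 88878 bp. DKK2, a WNT antagonist, and PTCH1, the hedgehog receptor, had lost sites at 40 and 852 bp.

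H3K27ac at these sites was compared before and after dTAGV-1 in each tagged hCNCC line. Unedited hCNCC given dTAGV-1 were not included, so effects of the compound or of time were not set apart. The authors counted reads over 213151 merged ATAC-seq peaks (sites of open chromatin), with totals of 5137169 to 8817125 per library, and an ATAC peak was found at 67.0% of gained, 90.5% of kept and 79.97% of lost sites. In TWIST1FV cells, 24 h of dTAGV-1 was followed by lower H3K27ac at 200 of 844 tested ATAC peaks of gained sites (23.7%), 143 of 506 of kept sites (28.3%) and 137 of 1001 of lost sites (13.7%), by edgeR's quasi-likelihood test at a false discovery rate of 0.05. Over all 123361 peaks tested, 9.49% fell and 4.28% rose. H3K27ac rose at 14 peaks of gained, 6 of kept and 25 of lost sites. The median log2 fold change was -0.42, -0.45 and -0.09, against 0.03 for all peaks, and with scaling by library size alone it was -0.29, -0.32 and 0.03, against 0.16. Without replicate 2 at 24 h, the falling peaks numbered 129, 93 and 96, and of all peaks 5.25% fell and 2.34% rose.

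The median H3K27ac level of gained sites was 2.99 and 2.91 log2 CPM (counts scaled to the library total after TMM normalization) at 0 h in the 2 replicates, 2.47 and 2.4 at 3 h, and 2.27 and 2.18 at 24 h. Lost sites started at the same 2.99 and 2.91 and were at 2.66 and 2.64 at 24 h, and kept sites went from 3.82 and 3.76 to 2.94 and 2.95. All libraries at 0 h were thus above all libraries at 24 h in each class. The median over all 123361 tested peaks of TWIST1FV cells kept this order with a smaller step, from 1.44 and 1.47 to 1.43 and 1.36. The order alone therefore does not set these classes apart from other peaks. These cells are 1 clonal line, and nothing in the labels says whether replicates were separate differentiations, so the tests measure the spread between these samples.

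**Figure D5:**
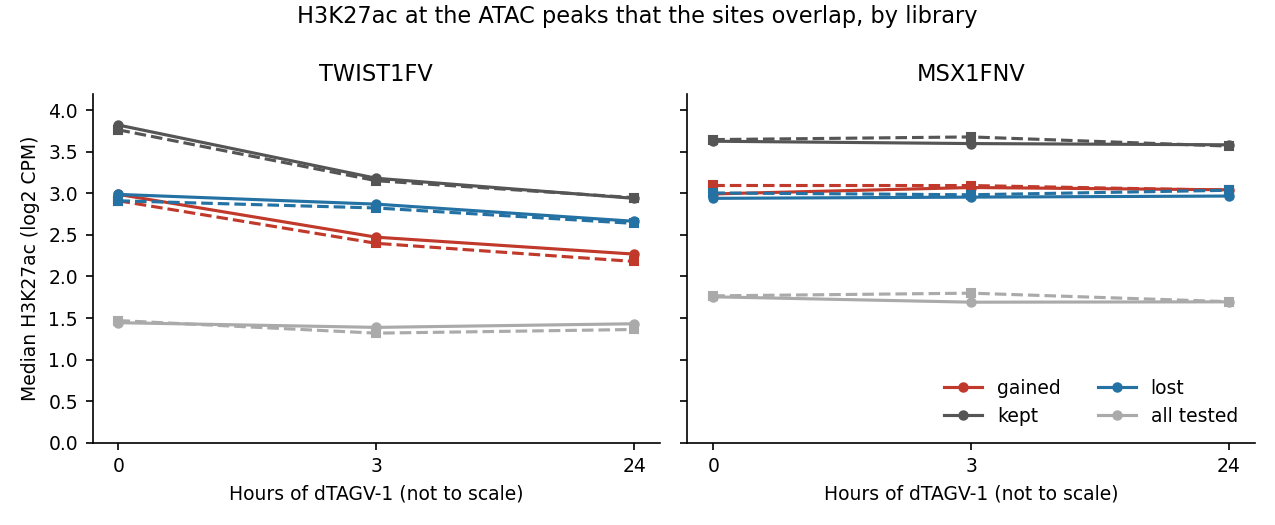
Median H3K27ac (y axis, log2 CPM) over the tested ATAC peaks of gained, kept and lost sites and over all tested peaks, at 0, 3 and 24 h of dTAGV-1 (x axis, not to scale), in TWIST1FV and MSX1FNV hCNCC. Solid lines with circles are replicate 1 and dashed lines with squares replicate 2; in TWIST1FV the gained sites go from 2.99 and 2.91 to 2.27 and 2.18, and in MSX1FNV from 2.99 and 3.09 to 3.04 and 3.04.

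Falling peaks were mostly those with TWIST1 bound in hCNCC. Among gained sites over an hCNCC TWIST1 peak, 198 of 629 ATAC peaks fell (31.5%), and among the others 2 of 215 (0.930%). The same counts were 135 of 665 (20.3%) and 2 of 337 (0.593%) for lost sites. Over all peaks tested in TWIST1FV cells, 28.9% of those over an hCNCC TWIST1 peak fell and 1.07% of the others, so gained sites were near this background and lost sites below it. Composite sites of the gained class fell at 17 of 42 peaks (40.5%, median log2 fold change -1.07), and lost sites with the double E-box at 20 of 52 (38.5%, median -0.92). These are 2 small sets, and the shares were not tested against each other.

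In MSX1FNV cells no ATAC peak of gained (829 tested), kept (497) or lost sites (966) passed the test at 24 h in either direction, by edgeR's quasi-likelihood test or by DESeq2, which does not show that none changed. Over all 111631 peaks tested, 0% fell by either tool, and 0.00448% rose by edgeR and 0.00537% by DESeq2. At an unadjusted p under 0.05 there were 28, 27 and 27 peaks of gained, kept and lost sites by edgeR and 10, 11 and 7 by DESeq2. Of all 111631 peaks, 3982 by edgeR and 1415 by DESeq2 were under this cut. The median log2 fold changes were 0.01, -0.00 and 0.02. The difference between the 2 lines was not tested.

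Single sites show the range behind these medians. The peak over the SYN3 site held 994 and 977 reads at 0 h, 290 and 250 at 3 h, and 133 and 66 at 24 h of dTAGV-1 in TWIST1FV cells, and fell by 3.44 on the log2 scale (SE 0.24, edgeR adjusted p = 1.36e-07). In MSX1FNV cells the same peak held 673 and 912 reads at 0 h and 582 and 774 at 24 h (log2 fold change -0.07, SE 0.11). Reads at the SLC14A2 site went from 185 and 185 to 34 and 31 in TWIST1FV cells, and the peak fell by 2.62 (SE 0.30, edgeR adjusted p = 1.33e-05). Composite sites at CLK1 and EGFLAM fell as well, with log2 fold changes of -1.95 and -1.06, as did the gained sites at TNC, SPATA18 and OLA1, with -1.67, -1.50 and -2.26. The site at LGI1, with 30 and 56 reads at 0 h and 36 and 40 at 24 h, did not pass (log2 fold change -0.26, SE 0.38, edgeR adjusted p = 0.742), nor did those at GDF5, N4BP1 and IGFBP7. Among kept sites COLEC12 (-1.36), ASB13 (-2.58) and RXRA (-0.88) fell, and NID2, PCOLCE and CD180 did not pass. Among lost sites CBFA2T2 (-2.62) and NAV1 (-3.59, from 63 and 72 reads to 12 and 0) fell, while the peak that the TWIST1 site overlaps rose by 0.88 (edgeR adjusted p = 0.00973).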

How the data were processed

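Peak lists were used as the authors deposited them. Bowtie2 2.4.1, SAMtools 1.10, MACS2 2.2.7.1 and deepTools 3.5.0 are named by the submitters' processing notes, without their roles, and coordinates are hg38. The deposited narrowPeak files give fold enrichment, a ratio to background, and -log10 p per peak, and lists were called per sample. The deposited H3K27ac tables hold counts per ATAC peak, not normalized. Of their counts of 20 or more, 76.7% to 81.5% were even, so a count may not be 1 independent fragment.

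Peaks were ranked by -log10 p, cut to the 2000 strongest and overlapped with numpy 2.4.6 (at least 1 bp). On made-up peaks bedtools 2.31.1 gave the same count of overlaps. Motifs were searched within 100 bp of the summit with pysam 0.24.0, and start sites and places came from GENCODE 44. Intervals used scipy 1.17.1. Counts were tested with edgeR 4.0.16 (R 4.3.3, TMM normalization, a filter on low counts, quasi-likelihood, Benjamini-Hochberg adjustment over all peaks tested), with all 3 times of a line in 1 fit, and DESeq2 1.42.0 as the alternative. The mouse spike-in of the TWIST1FV libraries was not used. The search for the composite motif, the overlap of peaks and the edgeR fit were tested on simulated data, and the other steps were not.

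Named sites are the 8 strongest gained, kept and lost sites, the 8 strongest gained sites with the composite motif and the 8 strongest sites of the list with MSX1 at an MSX1FNV V5 peak. Chromosome 8 and unplaced contigs were left out of the naming. A site carries the name of the protein-coding gene with the nearest start. The members, motifs and gene lists were chosen with earlier results of these data known. Alternatives were the list length, the ranking, the overlap rule, the motif window, the hCNCC list, the distance to a start site, the scaling, the count filter, the replicate block and each replicate left out.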

Additional observations from a re-analysis of the deposited data

How the results depend on the processing

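Of 182 recomputed values, 131 stayed within the limit set for them and 51 moved beyond it. The 131 include the MSX1FNV counts of falling and rising peaks at gained, kept and lost sites. These were 0 in every fit and so say little about stability. The top 500 lists were added after seeing the data. The share kept with MSX1 was 35.2% for the top 1000, 38.4% for the top 500, 24.8% when ranked by fold enrichment, 26.0% for summits within 100 bp and 50.1% over all peaks. For the top 1000 and top 500, the composite motif was at 6.33% and 8.12% of gained and 0.154% and 0% of lost sites, and within 50 bp of the summit at 2.60% and 0.141%. Overlap with TWIST1 in hCNCC for gained, kept and lost sites was 71.8%, 79.5% and 51.1% (top 1000), 85.4%, 87.0% and 55.5% (top 500), 33.9%, 67.9% and 35.7% (summits within 100 bp) and 52.6%, 77.5% and 56.6% (separate hCNCC list), and 40.3% of lost sites when ranked by fold enrichment. Overlap with MSX1 V5 peaks was 1.95% of gained and 0.325% of lost sites for the top 500, and with either V5 replicate left out it ranged from 0.211% to 0.563%, 0.173% to 1.38% and 0.281% to 0.703% of gained, kept and lost sites. Start sites were near 13.4% of gained and 25.2% of lost sites (top 1000), 12.3% and 23.1% (top 500), 23.1% of lost sites when ranked by fold enrichment, and 24.3%, 27.5% and 34.0% of gained, kept and lost sites within 2500 bp. The order of gained and lost sites in the hCNCC overlap turned with the separate list and with summits within 100 bp. The causes were not tested.

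In TWIST1FV cells the falling H3K27ac peaks ranged from 129 to 176 at gained, 93 to 122 at kept and 96 to 116 at lost sites with 1 library left out, lowest without 24 h replicate 2 in each; the lone library was then assumed to vary like the others. In each of these fits the share of all tested peaks that fell was lower too, so the lower counts alone do not show a change at these sites. More peaks were tested, 903 to 913 of gained sites against 844. The median log2 fold change ranged from -0.50 to -0.32 at gained, -0.52 to -0.42 at kept and -0.12 to -0.06 at lost sites. Scaling by library size alone moved the median of all peaks from 0.03 to 0.16. The replicate numbers do not pair the samples by the labels, and same-numbered libraries correlated at 0.0766 to 0.140. With the replicate block, 252, 180 and 183 peaks fell and 29, 19 and 42 rose, against 11.9% and 6.86% of all peaks. For gained sites in the V5 lists, leaving out a replicate gave differences of 8.72 to 9.32 points, a direction that the choice of sites favours.

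One library per group, the unknown depth behind each list and the shorter, weaker list with MSX1 limit all shares of kept, gained and lost sites.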
